A study of Mus musculus with 4 samples.

Results

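Group 2 innate lymphoid cells (ILC2) of mouse pancreas were divided by whether they held messenger RNA of Calca, the gene of calcitonin and of calcitonin gene-related peptide (CGRP). The members were chosen by their Calca reads: non-photoconverted cells of plate 1 with 16 or more of them, in which 500 or more genes had a read and mitochondrial rows held under 25% of reads. They numbered 37 of the 98 cells that passed, of 151 non-photoconverted wells on the plate and 1170 cells sorted in the whole series. The other 61 cells had fewer than 16 Calca reads and are called Calca-negative. Calca-positive cells were paired 1 to 1 with Calca-negative cells so that numbers of genes were as close as possible over all pairs. This gave 37 pairs.

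All cells came from pancreas of mice whose genotype is labelled C57BL6J, and they carried KIKR, whose green fluorescence becomes red after exposure to light. All cells compared were green, that is non-photoconverted (KIKR-Green). They were sorted as ILC2 into 4 plates of 384 wells and read by SORT-seq, which builds on CEL-seq2 and counts 3' ends of polyadenylated RNA. The labels give no age, feeding state or number of animals for the plate, and both sides of the comparison come from 1 library, so cells are not replicates and no test or p-value is given. Intervals are exact 95% binomial intervals. They cover the counting of cells only, and PCR copies of a read are no independent measurement of it.

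Transcripts of Calca are spliced into an mRNA for calcitonin, a hormone of thyroid C cells, or into an mRNA for CGRP, a peptide of sensory nerves that widens blood vessels. CGRP acts through the receptor CALCRL with its partner RAMP1, which raises cyclic AMP (cAMP) in the cell, and cAMP activates the transcription factor CREB through protein kinase A. ILC2 are tissue lymphocytes that respond to the alarmins IL-33 and IL-25 and make type 2 cytokines, and they are known both to respond to CGRP and to make it.

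Calca (ENSMUSG00000030669) lies on the minus strand of chromosome 7, from 114631478 to 114636357 on GRCm38 (GENCODE M21). The annotation lists 7 transcripts with 7 different 3' ends, and the deposited table has 1 row for the gene, so the calcitonin and CGRP forms cannot be told apart here. The 250 bases before its start, chr7:114636358-114636607 on the minus strand, are shown with a capital TGACG, the core of the motif that CREB family factors recognise. The sequence is from RefSeq on GRCm38.p6, written 5' to 3', and the single match starts at -65 from the transcription start:
Calca: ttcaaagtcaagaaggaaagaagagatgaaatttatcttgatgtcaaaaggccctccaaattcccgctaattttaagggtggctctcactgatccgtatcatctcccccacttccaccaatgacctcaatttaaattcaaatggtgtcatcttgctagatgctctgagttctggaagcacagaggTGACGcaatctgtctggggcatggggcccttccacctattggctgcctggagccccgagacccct
TGACG, searched on both strands, was in 17.8% of the 32851 RefSeq promoters of this length. A match describes letters and not a bound site.

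Calca reads in the 37 positive cells ran from 17 to 3400, with a median of 225. On the scale of reads per 1000000 gene reads (CPM), the lowest was 25.7, the median 1257 and the highest 11116. Of the 61 negative cells, 34 had 0 Calca reads and 27 had 1 to 15, with a highest value of 14. The cells nearest the limit had 5, 5, 13 and 14 reads below it and 17, 24, 33 and 35 reads above it. Since Calca chose the cells, these values describe the split. The share of positive cells among those that passed was 37.8% (28.2 to 48.1%). Of 221 wells left empty, 2 (0.905%) held 16 or more Calca reads, at 61 and 86 reads, which is the background for this limit. Of these 221 wells, 20 touched a Calca-positive well, against 50 of the 61 Calca-negative wells. The background thus covers few wells beside a Calca-positive one.

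**Figure D1:**
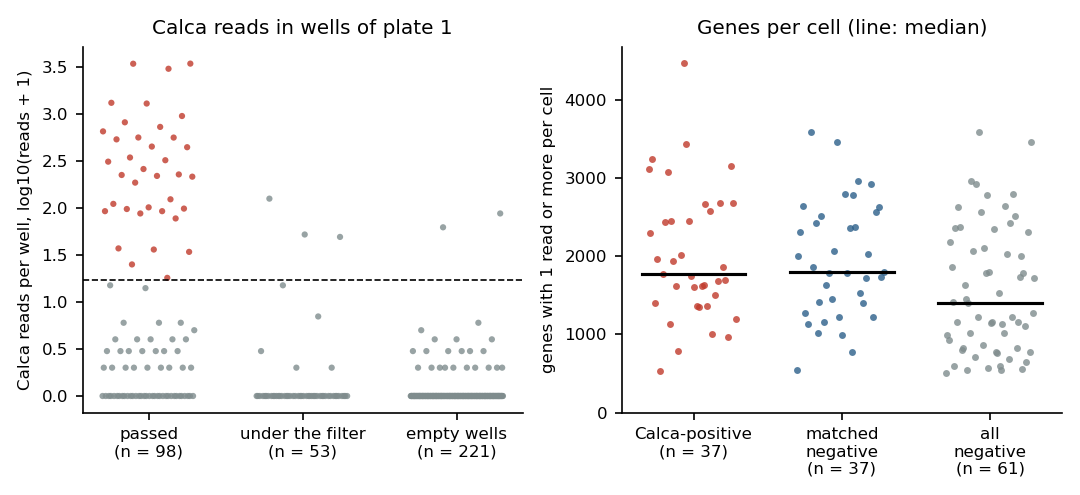
The left panel shows Calca reads per well of plate 1 as log10(reads + 1), for non-photoconverted wells that passed the filter, those under it and empty wells. Red points are the 37 Calca-positive cells and the dashed line is the limit of 16 reads, which 2 of 221 empty wells reached. The right panel shows genes at 1 read or more in each cell, with lines at medians of 1777, 1794 and 1408 for positive, matched negative and all negative cells.

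Calca-positive cells were deeper than the Calca-negative cells as a whole. They had a median of 1777 genes and 213325 gene reads, against 1408 genes and 134865 reads in all 61 negative cells. Reads of the spike-in RNA had medians of 68647 and 66549, and mitochondrial reads made up 8.35% and 10.2%. Ordered by number of genes, the 33 cells with fewest held 6 Calca-positive cells (18.2%, 7.0 to 35.5%), the middle 33 held 17 (51.5%) and the 32 with most held 14 (43.8%). The lowest 33 cells thus had the smallest share, and the upper groups did not keep climbing. After pairing, the matched negative cells had medians of 1794 genes, 219361 gene reads and 7.89% mitochondrial reads. The cells of a pair differed by a median factor of 1.03 and at most 1.25 in genes.

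A gene was counted as present in a cell at 16 reads, and 3413 genes present in at least 10% of the matched cells of both sides together were compared. Calca-positive and matched Calca-negative cells were alike in most of them. The median difference in the share of cells was 0 percentage points, 1537 genes were higher, 1392 lower and 484 equal, and 70.4% lay within 10 points of 0. A difference of 20 points or more was reached by 43 genes in the direction of Calca-positive cells (1.26% of those compared) and by 34 in the other (0.996%). All of them kept their sign when every cell was reduced to 10000 reads. By mean CPM with 10 added, 441 genes were higher by 2-fold or more (12.9%) and 527 lower (15.4%). The balance depended on the pairing: against all 61 negative cells, 154 of 3095 genes were higher by 20 points and 1 was lower, with a median difference of 6.38 points.

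**Figure D2:**
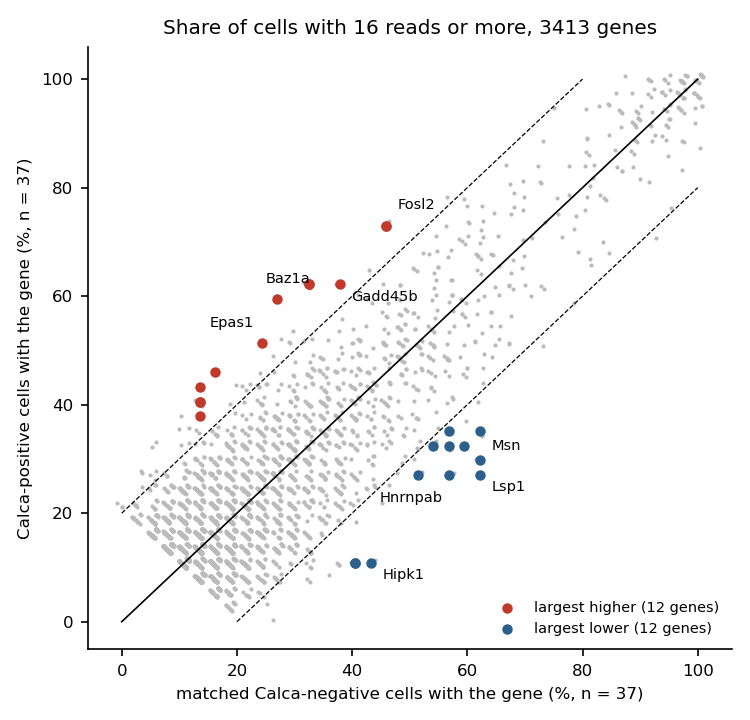
Each grey point is 1 of 3413 genes, placed by the share of the 37 matched Calca-negative cells (horizontal) and of the 37 Calca-positive cells (vertical) with 16 reads or more, with a small fixed offset so that points do not hide each other. The solid line marks equal shares and the dashed lines a difference of 20 percentage points. Red and blue points are the 12 named genes with the largest difference in each direction, such as Baz1a at 59.5 against 27.0% and Lsp1 at 27.0 against 62.2%.

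Exact intervals of the 2 shares were apart for only 3 genes in each direction (0.0879% of those compared each way). The filter bears on this count, since a gene at or near 0 on 1 side is compared only where it is frequent on the other. On the higher side these were Pecam1, which encodes the adhesion molecule CD31, Strn4, a striatin of phosphatase complexes, and Ypel2. Each was present in 8 of 37 Calca-positive cells and in 0 of 37 matched cells, where a count of 0 allows up to 9.49%. Among all 61 negative cells Pecam1 and Strn4 were each present in 1 and Ypel2 in 0. On the lower side they were Lsp1, Hipk1 and Txndc15. Txndc15, of the thioredoxin domain family, was present in 0 of 37 Calca-positive cells and 10 of 37 matched cells. Pecam1, Strn4, Ypel2 and Txndc15 passed the filter only through the side where they were high, and they were picked out here after their values were seen.

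The largest difference upward was in Baz1a, a subunit of ACF-type chromatin remodelling complexes on chromosome 12. It was present in 22 of 37 Calca-positive cells (59.5%, 42.1 to 75.2%) and 10 of 37 matched cells (27.0%, 13.8 to 44.1%). Its CPM ran from 0 over a median of 108 to 1177 in positive cells and from 0 over 2.25 to 1832 in matched cells. The ranges thus overlapped, and more of the positive cells reached 16 reads. Among the cells that reached 16 reads, the median was 431 CPM in positive and 747 CPM in matched cells, the opposite direction. In 13 pairs only the Calca-positive cell had Baz1a at 16 reads, in 1 pair only the negative cell. Chd4, the ATPase of the NuRD remodelling complex, was present in 23 against 12 cells (62.2 and 32.4%), with median CPM of 204 and 26.6. Zc3hav1, an antiviral RNA-binding zinc finger protein, had the same counts of 23 and 12.

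Fosl2, a Fos family partner of Jun in the transcription factor AP-1, was present in 27 of 37 Calca-positive cells (73.0%, 55.9 to 86.2%) and 17 of 37 matched cells (45.9%, 29.5 to 63.1%). Its median CPM was 399 against 73, and its highest value, 8599, was in a matched negative cell. Counted at 1 read in place of 16, the difference of Fosl2 was 0. Gadd45b, a stress-induced regulator of MAP kinase signalling, was present in 23 against 14 cells. Map3k1, a kinase at the top of the JNK cascade, was present in 15 against 5. Epas1, the hypoxia-inducible factor HIF-2 alpha, was present in 19 of 37 Calca-positive cells (51.4%) and 9 of 37 matched cells (24.3%). Signalling and stress genes were thus among the 12, but so were genes of other kinds. Abhd17b, which removes palmitate from proteins, was present in 17 against 6 cells and Lpcat2, which remodels membrane phospholipids, in 15 against 5. Hs3st1, a heparan sulfate sulfotransferase, was present in 27 against 17 cells, Commd4 in 16 against 5 and Celf1, an RNA-binding regulator of splicing, in 14 against 5.

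**Figure D3:**
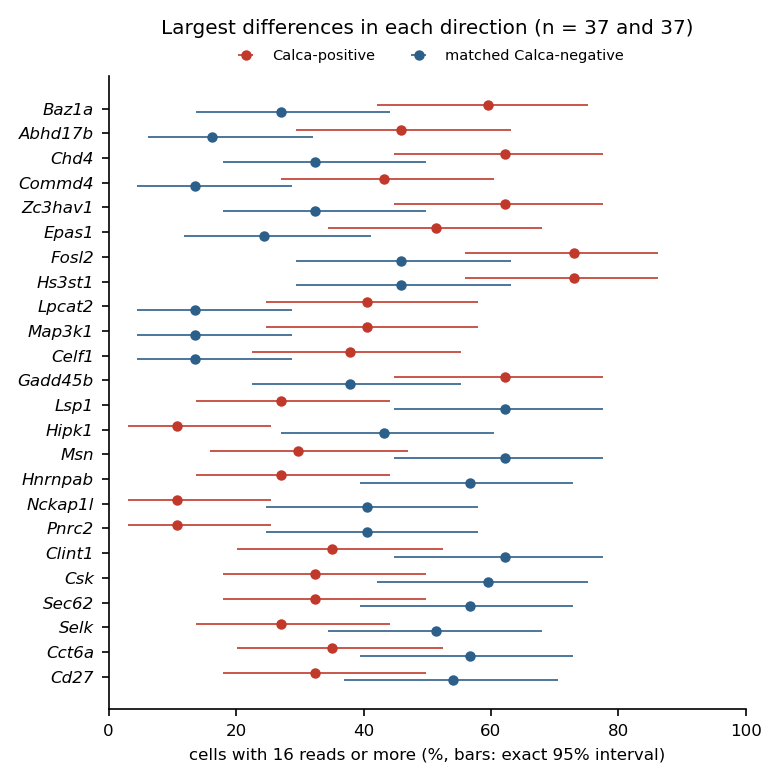
Share of cells with 16 reads or more of each of the 24 named genes, in 37 Calca-positive cells (red) and 37 matched Calca-negative cells (blue), with exact 95% intervals as bars. Intervals overlap for all 12 genes that were higher, and are apart for Lsp1 and Hipk1 among the 12 that were lower.

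The largest difference downward was in Lsp1, an actin-binding protein of leukocytes on chromosome 7. It was present in 10 of 37 Calca-positive cells (27.0%, 13.8 to 44.1%) and 23 of 37 matched cells (62.2%, 44.8 to 77.5%). Its CPM ran from 0 over a median of 4.76 to 1158 in positive cells and from 0 over 203 to 1546 in matched cells. In 13 pairs only the negative cell held Lsp1 and in 0 pairs only the positive cell. Msn (moesin, on chromosome X), which ties the membrane to actin, was present in 11 of 37 against 23 of 37 cells, with median CPM of 15.6 and 239. Nckap1l (HEM1), the blood cell subunit of the WAVE actin-nucleating complex, was present in 4 against 15 cells (10.8 and 40.5%). No list of actin genes was compared, and other actin-binding genes past 20 points went both ways: the tropomyosin gene Tpm3 was present in 19 against 27 cells and Tpm4 in 19 against 11.

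Of the other genes lower in Calca-positive cells, Hipk1, a nuclear kinase, was present in 4 of 37 Calca-positive cells (10.8%, 3.0 to 25.4%) and 16 of 37 matched cells (43.2%, 27.1 to 60.5%). Cd27, a costimulatory receptor of the TNF receptor family, was present in 12 against 20 cells, and Csk, the kinase that restrains Src family kinases, in 12 against 22. Selk, a selenoprotein of the endoplasmic reticulum, was present in 10 against 19 and Sec62, of the translocation channel there, in 12 against 21. Clint1 (vesicle coats) was present in 13 against 23 cells, Hnrnpab (RNA binding) in 10 against 21, Cct6a (chaperonin) in 13 against 21 and Pnrc2 (mRNA decay) in 4 against 15. By mean CPM the difference of Hnrnpab was -2.33 on the log2(CPM + 10) scale and that of Pnrc2 was -2.91, and in both the highest values (11295 and 13949 CPM) were in matched negative cells.

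Other peptides of the calcitonin family did not accompany Calca. Calcb, the gene of beta-CGRP, and Adm, the gene of adrenomedullin, were present at 16 reads in 0 of 37 Calca-positive and 0 of 37 matched cells. Of the receptor parts, Ramp3, a partner that turns CALCRL into an adrenomedullin receptor, was present in 16 of 37 Calca-positive cells (43.2%, 27.1 to 60.5%) and 9 of 37 matched cells (24.3%, 11.8 to 41.2%). Ramp1, the partner that makes the CGRP receptor, was present in 7 against 8 cells and Calcrl, the receptor itself, in 4 against 2, too few to be compared. Gnas, the stimulatory G protein through which the receptor acts, was present in 34 against 33. The list's 3 compared genes had a median difference of 2.70 points. Of the peptide processing list of 14 genes, 3 were compared, with 2 higher, 1 equal and a median of 2.70. Furin, a convertase, was present in 17 against 15 cells, Pcsk1, a convertase of endocrine granules, in 1 against 0, and Pam, which amidates peptides such as CGRP, in 0 cells of either side.

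Genes tied to cAMP and CREB were mostly more often present in Calca-positive cells. Of 16 compared, 10 were higher and 6 lower, with a median of 8.11 points, beside 0 over all 3413 genes. The median was smaller under most other settings, at 1.35 with genes present at 64 reads, 2.70 at 1 read and 1.70 at 1000 reads per cell. The pair past 20 points were Fosl2 and Rgs2. Rgs2, a brake on G protein signalling that CREB induces, was present in 29 of 37 Calca-positive cells (78.4%, 61.8 to 90.2%) and 21 of 37 matched cells (56.8%, 39.5 to 72.9%). Its CPM ran from 0 over a median of 1369 to 7013 in positive cells and from 0 over 274 to 7453 in matched cells. Nr4a1, an orphan nuclear receptor induced within minutes of stimulation, was present in 33 against 27 cells, with median CPM of 2951 and 1775. Sik1, a kinase that limits CREB activity, was present in 11 against 5. Not all members shared this direction: Crem, a CREB relative and target, was present in 15 against 17 cells, Per1, a clock gene with a CREB site, in 7 against 11, and Rgs1 in 10 against 13.

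Rgs2, Nr4a1 and Fosl2 were the members named by mean CPM. Fosl2 was not among the genes of the list found to hold TGACG, and its sequence is not shown. The 250 bases before the starts of Rgs2 and Nr4a1 hold TGACG or its reverse complement CGTCA, in capitals. They are chr1:144004150-144004399 on the minus strand and chr15:101266596-101266845 on the plus strand, from RefSeq on GRCm38.p6, 5' to 3':
Rgs2: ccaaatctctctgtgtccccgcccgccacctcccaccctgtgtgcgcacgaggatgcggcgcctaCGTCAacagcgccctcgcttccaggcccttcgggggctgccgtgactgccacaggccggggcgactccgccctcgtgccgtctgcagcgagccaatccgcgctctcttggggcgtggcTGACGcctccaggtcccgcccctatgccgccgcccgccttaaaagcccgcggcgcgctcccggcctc
Nr4a1: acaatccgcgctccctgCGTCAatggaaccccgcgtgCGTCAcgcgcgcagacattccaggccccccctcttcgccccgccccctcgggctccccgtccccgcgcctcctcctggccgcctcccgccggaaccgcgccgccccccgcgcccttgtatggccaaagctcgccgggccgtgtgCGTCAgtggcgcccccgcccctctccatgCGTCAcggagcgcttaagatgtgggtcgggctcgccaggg
Rgs2 held 2 matches and Nr4a1 held 4, beside 1 in the Calca promoter. Of the list's 16 compared genes, 11 matched the promoter table by symbol and 7 of these held TGACG, beside 19.8% of all 27025 genes in the table. A gene counted if any of its promoters held TGACG, so a gene with more promoters had more places for a match. Counted by promoter, TGACG was in 43.5% of the 23 promoters of these 11 genes, beside 17.8% of all 32851 promoters. The list holds both genes known to respond to CREB, such as Nr4a1 and Per1, and parts of the pathway itself, such as Prkaca, Prkar1a and Adcy7, and both kinds are among the 7. It was written from knowledge of this pathway, so these shares are a description of the list. Among the largest differences, TGACG was in 2 of the 10 matched genes that were higher and in 2 of the 8 that were lower.

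Immediate early genes, which switch on within minutes of a signal, were higher in 13, lower in 2 and equal in 2 of 17, with a median of 8.11 points. The median was above 0 under 14 of 17 alternative settings. It was 0 with genes present at 1 read or cells paired by genes at 16 reads, and -6.67 with cells divided at 1 Calca read. None of these genes passed 20 points. Junb, present in nearly every cell, was at 36 against 33 of 37, Dusp1, a MAP kinase phosphatase, at 28 against 24, and Egr1, a zinc finger transcription factor, at 15 against 11. Fos was at 24 against 23, and the difference in mean CPM of Fos was 0.00 on the log2 scale. Klf4 and Batf went the other way, at 4 against 8 and 3 against 8. Of 15 genes of NF-kB and MAP kinase feedback, 11 were higher and 4 lower, with a median of 5.41 points, or -3.33 with cells divided at 1 Calca read. Birc3, an inhibitor of cell death induced by NF-kB, was present in 17 of 37 Calca-positive cells and 10 of 37 matched cells, and Nfkbiz, a nuclear NF-kB cofactor, in 31 against 25. The inhibitors of JAK-STAT signalling in the list did not share 1 direction: Cish was present in 16 against 23 cells and Socs1 in 5 against 10, but Socs2 in 17 against 13.

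**Figure D4:**
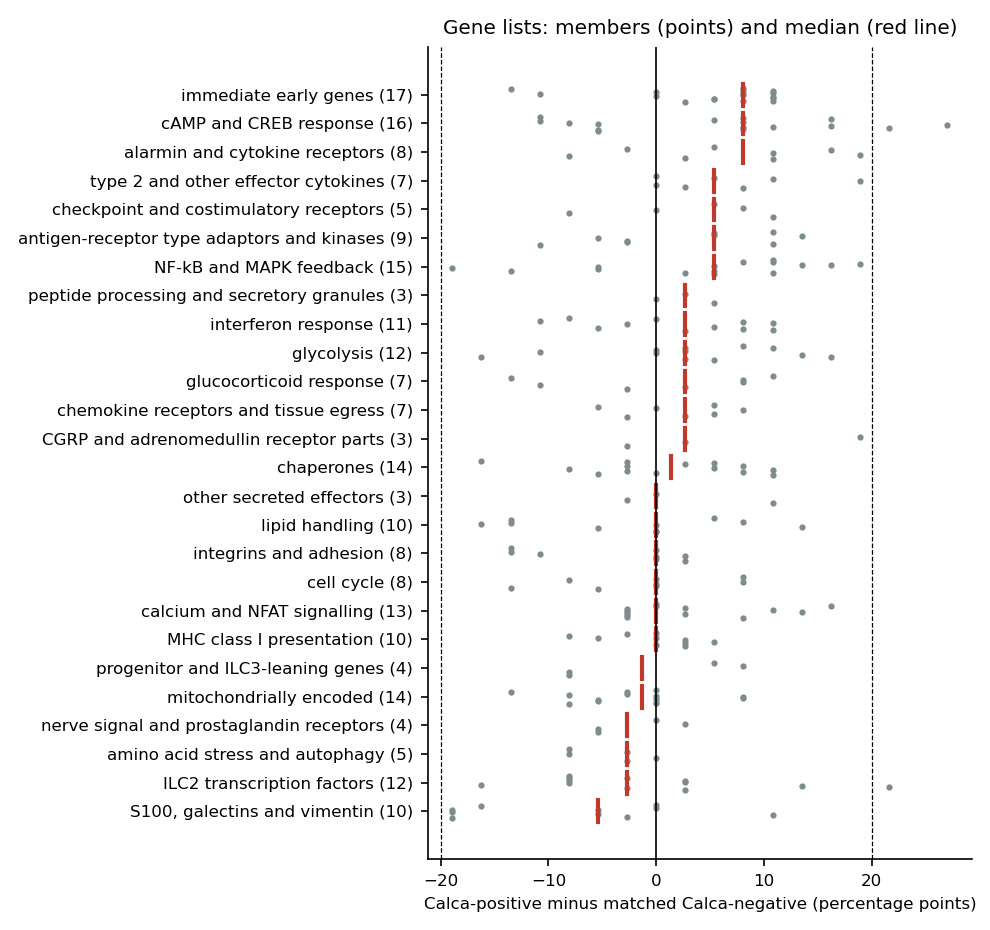
Difference in share of cells, Calca-positive minus matched Calca-negative, in percentage points, for each gene list with 3 or more genes compared (number in brackets). Grey points are genes, spread vertically within a row, red lines list medians, the solid line the median of all 3413 genes (0) and the dashed lines the limit of 20 points. List medians run from 8.11 for immediate early genes to -5.41 for the S100, galectin and vimentin list, which also holds Crip1, Tmsb4x and Tmsb10.

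Effector cytokines that were compared were mostly in the same direction, most of them in few cells. Of 7 compared, 5 were higher, 0 lower and 2 equal, with a median of 5.41 points and none past 20. The median was 2.70 with genes present at 1 read, 1.63 at 1000 reads per cell and 15 with 64 or more Calca reads set against 0. Csf2, which encodes GM-CSF, was present in 21 of 37 Calca-positive cells (56.8%, 39.5 to 72.9%) and 14 of 37 matched cells (37.8%, 22.5 to 55.2%), with median CPM of 102 and 37.6. Il5, the eosinophil growth factor typical of ILC2, was present in 13 (35.1%, 20.2 to 52.5%) against 9 (24.3%, 11.8 to 41.2%). The difference in mean CPM of Il5 was 1.34 on the log2(CPM + 10) scale, and its highest CPM was 7869.9 in positive and 3855 in matched cells. Il4 was present in 6 against 3 cells, Lif in 6 against 5, and Il13 and Csf1 in equal numbers (4 and 4, 11 and 11). Of members too rare to be compared, Tgfb1 was present in 1 against 4 cells, Il2 in 0 against 1 and Tnf in 1 against 1. Areg, the gene of the repair factor amphiregulin, was present in 27 against 23 cells.

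Receptors through which ILC2 sense alarmins and growth cytokines were higher in 6 and lower in 2 of 8, with a median of 8.11 points, or 0 with cells divided at 1 Calca read or limited to 10% mitochondrial reads. Il1rl1, the IL-33 receptor, was present in 30 of 37 Calca-positive cells (81.1%) and 26 of 37 matched cells (70.3%), with CPM from 1.4 over a median of 1419 to 10779 and from 0 over 690.4 to 10857. Il17rb, of the IL-25 receptor, was present in 16 against 10, Il4ra, the shared IL-4 and IL-13 receptor chain, in 12 against 5, and Il2ra, the high-affinity IL-2 receptor chain, in 21 against 17. By mean CPM Il17rb had the opposite sign, -0.28 on the log2 scale. Il7r, the IL-7 receptor, was close to even at 25 against 23.

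Transcription factors that make and hold the ILC2 state gave no common direction, with 5 higher and 7 lower of 12. Their median was -2.70 points, which was 7.49 without pairing. The median of their differences in mean CPM was 0.32 on the log2(CPM + 10) scale, the opposite sign. Gata3, the factor on which ILC2 depend, was present in 34 of 37 Calca-positive and 33 of 37 matched cells, and Id2 in 34 and 33. Gata3 and Id2 were thus present in nearly all cells of both sides. Other members were in few cells of either side. Gfi1 was present in 8 against 9, Pparg in 3 against 6 and Rora, too rare to be compared, in 4 against 2. Satb1, a chromatin organiser of lymphocytes, passed 20 points, at 24 of 37 (64.9%, 47.5 to 79.8%) against 16 of 37 (43.2%, 27.1 to 60.5%), with median CPM of 194 and 33.3. Bcl11b, required to keep ILC2 identity, was present in 24 against 19 cells. Runx3, a factor used more by other innate lymphoid lineages, was present in 1 against 7. It passed the filter almost only through the side where it was high.

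Genes of S100 proteins, galectins, annexins and vimentin are known to be high in motile and effector-memory lymphocytes. The list that holds them also holds Crip1, Tmsb4x and Tmsb10, which are of none of these classes. Of its 10 genes compared, 7 were lower, 1 higher and 2 equal, with a median of -5.41 points. Crip1 and Tmsb10 were each at -5.41 points and Tmsb4x at 0. The list median was -0.31 against all 61 negative cells without pairing, -1.35 with genes present at 1 read and -15 with 64 or more Calca reads set against 0. S100a4 was present in 9 of 37 Calca-positive cells (24.3%, 11.8 to 41.2%) and 16 of 37 matched cells (43.2%, 27.1 to 60.5%). S100a6 was present in 8 against 15, S100a11 in 15 against 21 and Lgals1, the gene of galectin-1, in 4 against 11. In mean CPM these 4 differed by -1.90, -2.20, -1.40 and -1.65 on the log2(CPM + 10) scale. S100a10 was the exception, at 26 against 22 cells. The integrin and adhesion list was higher in 2, lower in 3 and equal in 3 of 8 (median 0), with Itgb7, of the gut-homing integrin, at 17 against 22 cells and Itgal at 17 against 21.

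The remaining lists with 3 or more genes compared had medians between 5.41 and -2.70 points. Of 5 checkpoint and costimulatory receptors, 3 were higher, 1 lower and 1 equal (median 5.41), with Icos, a costimulatory receptor of ILC2, at 19 against 16 cells and Pdcd1, the gene of PD-1, at 10 against 13. Of 9 adaptors and kinases known from antigen receptor signalling, 5 were higher and 4 lower (median 5.41). Among these the adaptor gene Lcp2 was at 16 against 11 cells and Lat at 14 against 18. Over the 9 genes the median difference in mean CPM was -0.93 on the log2(CPM + 10) scale, the opposite sign. By mean CPM the sign was also opposite for the checkpoint list (-0.14) and the chaperones (-0.15). The same held for nerve signal and prostaglandin receptors (-2.70 points, 0.20 by mean CPM) and mitochondrially encoded genes (0.04 by mean CPM). Glycolysis genes were higher in 8 and lower in 2 of 12 (median 2.70 points), although Pkm, the last enzyme of the pathway, was lower at 19 against 25 cells. Amino acid stress and autophagy genes were higher in 0 and lower in 4 of 5 (median -2.70). Interferon response (11 compared) and glucocorticoid response (7) had medians of 2.70, chaperones (14) 1.35, and calcium and NFAT signalling (13), MHC class I presentation (10), lipid handling (10) and cell cycle (8) had medians of 0. The 72 ribosomal protein genes compared, many with near-identical copies between which reads may be split, had a median of 0. Mitochondrially encoded genes (14) had a median of -1.35.

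The same cells were also described in 4 classes of 0, 1 to 15, 16 to under 200, and 200 or more Calca reads, with 34, 27, 15 and 22 cells. The genes given were chosen after their values in these cells were seen. A step at 16 Calca reads therefore restates the comparison above and is no further check. The first class was shallower, with a median of 1130 genes against 1794, 1752 and 1822.5 in the others, so its lower shares go with lower depth. Fosl2 was present in 29.4, 55.6, 60.0 and 81.8% of the 4 classes, Rgs2 in 50, 59.3, 73.3 and 81.8%, and Csf2 in 20.6, 29.6, 53.3 and 59.1%. These genes, and Satb1 and Ramp3, were highest in the cells with most Calca. Il5 was present in 8.82, 25.9, 26.7 and 40.9%. Map3k1 did not follow this order, at 73.3% of cells with 16 to under 200 Calca reads and 18.2% of those above. Lsp1 was present in 35.3, 63.0, 40.0 and 18.2% and Msn in 35.3, 48.1, 33.3 and 27.3%. Both were highest in the class of 1 to 15 reads, whose depth was like that of the classes above it.

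**Figure D5:**
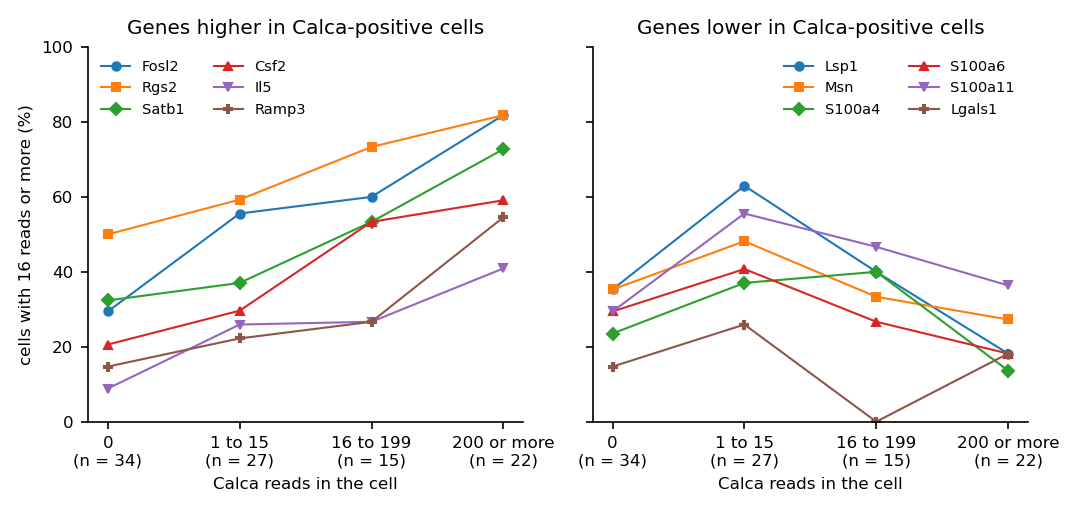
Share of cells with 16 reads or more of 12 genes (symbols joined by lines) by the number of Calca reads in the cell, in 34, 27, 15 and 22 cells. The genes were chosen after their values were seen, and the class with 0 Calca reads has fewer genes per cell. Fosl2 goes from 29.4 to 81.8% on the left and Lsp1 from 63.0 to 18.2% over the 3 deeper classes on the right.

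Without pairing for depth, 56.5% of cells with Il5 were Calca-positive and 32.0% of cells without it, and the shares were 53.3 and 30.9% for Il17rb. For Klrg1, a receptor of mature ILC2, they were 46.4 and 26.2%, and for Ltb, the gene of lymphotoxin beta, 41.3 and 34.6%. Matched cells had Klrg1 in 26 of 37 on the Calca-positive side and 22 of 37 on the negative side, and Ltb in 19 and 22.

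Markers of other cell types were few on both sides. In 0 cells of either side were 3 or more markers of 1 other cell type present. Only the lists of T cells, NK cells and acinar or ductal cells had 3 or more markers with reads. For the other lists this result was fixed in advance. Of 9 T cell markers 4 had reads, with Cd3e at 0 cells and Cd3g in 2 of 37 Calca-positive and 6 of 37 matched cells. Of 7 endothelial and stromal markers only Pecam1 had reads, with a summed level of at most 1518 CPM in positive and 5.19 in matched cells. Of 8 mast cell and basophil markers Hdc, the histamine-forming enzyme, was present in 7 against 1 cells and Kit in 9 against 7, while the other 6, Cpa3 and Fcer1a among them, had no reads. The summed level of these markers ran to 2369 and 3284 CPM. Hdc passed the filter almost only through the side where it was high. Of the myeloid markers, Cst3, the gene of the protease inhibitor cystatin C, was present in 15 against 11 cells and Cd68 in 0 cells of either side. Lists for B cells, NK cells, endocrine cells, acinar and ductal cells and neurons had no gene frequent enough to compare, and the part of such cells in the differences was not tested.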

How the data were processed

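Single ILC2 were sorted into SORT-seq plates, and libraries followed CEL-seq2, per the labels. The authors deposited raw read counts per gene row and well, and a sort record whose deposited columns give plate, well, colour and a red fluorescence intensity in arbitrary units. The submitters' processing notes name mm10, edgeR, STARsolo and STAR. Roles and versions are not given in the sources used here. The counts are reads, not molecular identifiers.

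Rows named as spike-in held 43.2% of the reads of plate 1 and 0.113, 44.1 and 21.7% of those of plates 2 to 4, and rows named as mitochondrial 5.63% against 0.0531, 0.0110 and 0.0204%. The names therefore fit plate 1 only, and plates 2 to 4 enter no comparison. Plate 1 held 52614294 reads, and cells that passed had 17825 to 1274117 gene reads.

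Cells were paired 1 to 1 without replacement on log2 genes at 1 read or more (Calca left out, pairs at most 1.5-fold apart). CPM are reads per 1000000 gene reads, without spike-ins and, except for Calca itself, without Calca. Genes named were the 12 largest differences in each direction among genes present in at least 25% of matched cells that kept their sign at 10000 reads per cell (ribosomal protein genes, numbered models and pseudogenes skipped), and 3 members of each list with the highest mean CPM. Further list members, and genes said to be so, were named after their values were seen. The members, the 37 gene lists and the comparison were chosen with earlier results of these data known. No doublet calling was done, as wells were sorted singly. Strand use in counting is not given, so reads of overlapping genes cannot be told apart. The scripts (Python 3.11.15, pandas 2.3.3, numpy 2.4.6, scipy 1.17.1) were tested on simulated data. Alternatives were the cell filter, the detection limit, the Calca limit, the pairing, depth, the gene filter and the CPM added.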

Additional observations from a re-analysis of the deposited data

Results flagged for a closer look

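Outside the comparison, 6 of the 8 photoconverted cells of plate 1 that passed the same filter had 16 or more Calca reads (75%, 34.9 to 96.8%), above the 0.905% (0.110 to 3.23%) of 221 empty wells. Among the green cells that passed, the share was 37.8% (28.2 to 48.1%), and this interval overlaps that of the photoconverted cells. The photoconverted cells were deeper than the Calca-positive green cells, with a median of 2748.5 against 1777 genes. Of the 53 green wells under the filter, 3 had 16 or more Calca reads (5.66%, 1.18 to 15.7%). That interval overlaps that of the empty wells.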

How the results depend on the processing

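The counts of genes past 20 points (43 higher, 34 lower) depended on the settings, and the cause was not tested. Under some settings fewer cells or genes entered. The counts were 76 and 72 with at least 1000 genes per cell (34 pairs), 138 and 109 with a mitochondrial limit of 10% (21 pairs), 121 and 59 with genes present at 1 read, and 21 and 18 at 64 reads. Dividing the cells at 1 Calca read gave 70 and 52 (30 pairs), at 64 reads 69 and 58 (32 pairs), and 64 reads or more against 0 gave 258 and 168 (20 pairs). Without pairing they were 154 and 1, with the 5 nearest negative cells 68 lower, drawn down to 10000 reads 24 and 18, drawn down to 1000 reads 1 and 2, with genes kept at 25% of cells 25 and 22, and without cells holding 10 or more cell cycle genes 67 lower. With 100 added to mean CPM, 85 genes were higher and 97 lower by 2-fold. Of the 24 named genes, 19 kept their sign under all 17 alternatives. Csk was 8.11 points higher at 64 reads and Hs3st1 was at -3.33 with Calca divided at 1 read, while Fosl2 and Clint1 were at 0 with genes present at 1 read and Gadd45b with Calca divided at 1 read. List medians ranged from 1.35 to 9.48 points for cAMP and CREB genes and 1.63 to 15 for cytokines. They ranged from -15 to -0.31 for the list with S100 and galectin genes, and -6.67 to 11.03 for immediate early genes. No paired analysis was possible because only 1 plate entered, so plates could be neither paired by number nor left out in turn. The pairs above are pairs of cells. With 37 cells a side, a difference of 20 points usually lies inside overlapping intervals.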

Other observations

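Red fluorescence of the green cells, which the sort record gives for each well, had a median of 9 in Calca-positive cells (-1158 to 1314) and of -126 in matched Calca-negative cells (-2415 to 1527), so the ranges overlapped. Wells touching a Calca-positive well numbered 27 of 37 Calca-positive (73.0%) and 50 of 61 Calca-negative wells (82.0%), beside 20 of 221 empty wells (9.05%). Cells with 10 or more cell cycle genes numbered 1 among Calca-positive and 2 among matched cells.

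Past the 20-point limit but outside the named genes, 5 further genes were picked after their values were seen. Lta4h, the enzyme that makes leukotriene B4, was present in 10 of 37 Calca-positive and 1 of 37 matched cells. Ltb4r1, a receptor of leukotriene B4, was present in 10 against 18. Ffar2, a receptor of short-chain fatty acids, was present in 13 against 4. Thy1, a surface marker used to sort ILC2, was present in 9 against 17, and Parp9, an interferon-induced gene, in 1 against 9. Lta4h and Parp9 passed the filter almost only through the side where they were high.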
